A study of Mus musculus with 50 samples.

Results

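The regional contrast of the S1P2-deficient mouse brain, hippocampus minus neocortex, was described over all measured transcripts. Members were the arrays whose titles name the groups S1P2-KO hippocampus (10 arrays) and S1P2-KO neocortex (10 arrays), 20 of the 50 arrays in the series. The titles give 5 males and 5 females in each of these groups. The comparison groups were S1P3-KO (5 arrays per tissue, 2 males and 3 females) and wild-type mice (10 arrays per tissue, 5 males and 5 females). All mice were killed at 8 weeks of age. S1P2-deficient mice have sporadic spontaneous seizures between 4 and 7 weeks of age, so the tissue was taken after that period, and S1P3-deficient mice are stated to have none. The titles call the replicates biological, but neither they nor the design text say which hippocampus and neocortex came from the same mouse. Strain, the deleted exons and the seizure history of single animals were not given in the sources used here.

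S1P2 and S1P3, encoded by S1pr2 and S1pr3, are G protein-coupled receptors on the cell surface that bind sphingosine 1-phosphate, a lipid released by many cell types, and act through heterotrimeric G proteins on the cytoskeleton and on calcium signalling. Hippocampus and neocortex share their main cell classes but differ in their excitatory neurons: granule cells and pyramidal cells of the hippocampal fields on one side, and pyramidal cells of the cortical layers on the other. Each class carries its own transcription factors, adhesion molecules, receptors and channels, so a regional contrast reads these identities together with differences in activity and in the proportions of glia. In whole tissue, fewer cells of a type and less RNA per cell cannot be told apart.

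Levels are the MAS5 signals that the authors deposited, on a linear scale, and are given as the lowest, the median and the highest array of a group. Differences are log2 estimates ± SE from a limma model of all 50 arrays, hippocampus minus neocortex, so that a positive value means higher in hippocampus and a difference of 1 is a 2-fold difference. After a filter on dim signals 8534 probe sets were tested, which stand for 6349 genes when each gene is read by its brightest probe set. A call is a Benjamini-Hochberg adjusted p under 0.05 over all probe sets, and a large difference is a call of at least 1 on the log2 scale.

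The arrays were checked first. The 3′ to 5′ ratio of the control probe sets (log2), which rises when RNA is degraded or copied incompletely, lay between 0.018 and 0.524 on all S1P2-KO hippocampus arrays except replicate 7, where it was 1.37, and between 0.008 and 0.606 in S1P2-KO neocortex. Single arrays of other groups also stood above 1, namely S1P3-KO hippocampus replicate 5 at 4.46 and wild-type hippocampus replicate 4 at 1.198. A Y-linked transcript placed 0 arrays against their sex label, and 0 pairs of arrays held identical values. The targeted gene S1pr2 had a signal of 340.5, 478.2 and 834.5 in S1P2-KO hippocampus and of 347.7, 646.7 and 824.7 in S1P2-KO neocortex, against 373.9, 649.8 and 962.2 in wild-type hippocampus and 425.6, 727.4 and 875.8 in wild-type neocortex. The groups overlapped, the regional difference of S1pr2 was -0.21 ± 0.15 in S1P2-KO (adjusted p = 0.46), and it differed from that of wild-type by -0.14 (95% interval -0.58 to 0.30). Where this probe set lies relative to the deleted part of S1pr2 is not known here, so it does not check the labels, and S1P2-KO stands for the arrays whose titles say so. S1pr3 had a regional difference of -0.17 ± 0.14 in S1P2-KO (adjusted p = 0.525).

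Hippocampus and neocortex of S1P2-KO mice differed in 1255 of 8534 probe sets (14.7%), of which 650 were higher in hippocampus (7.62%) and 605 lower (7.09%). Read as genes, 1000 of 6349 passed (15.8%), with 524 higher (8.25%) and 476 lower (7.5%). Large differences were found for 178 probe sets (2.09%) and for 131 genes (2.06%), of which 63 were higher (0.992%) and 68 lower (1.07%) in hippocampus. For 119 genes every S1P2-KO hippocampus array lay above every S1P2-KO neocortex array (1.87%), and for 123 genes every one lay below (1.94%). The wild-type contrast gave 1243 calls (14.6%), 169 of them large (1.98%), and the S1P3-KO contrast gave 1023 (12%), 235 of them large (2.75%). As genes, 8.44% were higher and 7.17% lower in wild-type hippocampus.

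**Figure D1:**
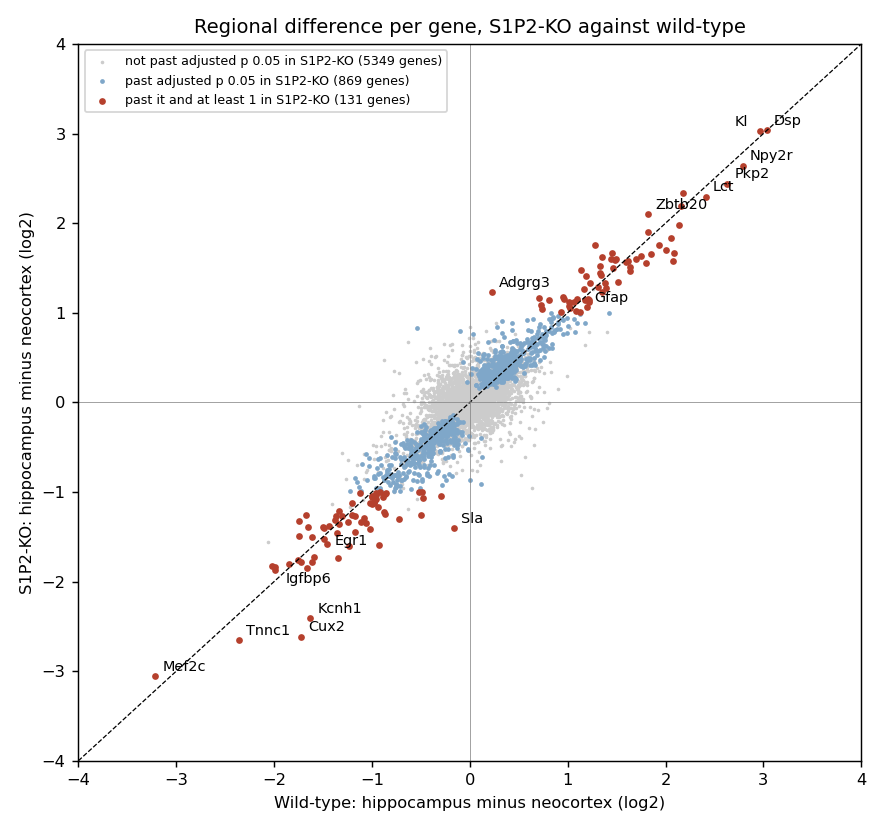
Hippocampus minus neocortex (log2) of each of 6349 genes in S1P2-KO (vertical axis) against wild-type (horizontal axis); red points are the 131 genes with a large difference in S1P2-KO, blue points the other genes past an adjusted p of 0.05, and the dashed line marks equal differences. Most red points lie near the line, from Dsp (3.04 in S1P2-KO, 3.03 in wild-type) to Mef2c (-3.06 and -3.22), while Sla, Adgrg3 and Cux2 lie farther from it.

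The transcripts with the largest excess in hippocampus included 2 parts of the desmosome, the junction that ties neighbouring cells together. Dsp, which encodes desmoplakin and marks granule cells of the dentate gyrus, had a signal of 773.9, 1272 and 1742 in S1P2-KO hippocampus and of 59.9, 122 and 200.1 in S1P2-KO neocortex. Every hippocampal array lay far above every neocortical one, and the difference was 3.04 ± 0.23 (limma adjusted p = 7.11e-15). Pkp2, which encodes the desmosomal protein plakophilin 2, gave 1628, 2176 and 2818 in hippocampus and 253.6, 382 and 535.6 in neocortex, a difference of 2.44 ± 0.14 (adjusted p = 3.45e-19), again without overlap. In the same order of tissues Npy2r, a receptor for the peptide neuropeptide Y, read 2639, 3340 and 4305 against 305.8, 500.2 and 758.9, a difference of 2.64 ± 0.14 (adjusted p = 5.62e-21). Wild-type mice gave 3.03 for Dsp, 2.63 for Pkp2 and 2.79 for Npy2r. The 95% intervals of S1P2-KO minus wild-type were -0.66 to 0.67, -0.59 to 0.21 and -0.53 to 0.24, so each of these contrasts held to within less than 1 on the log2 scale. The dimmer probe sets of Npy2r and Pkp2 gave 2.08 and 2.34 in S1P2-KO, and 2.79 and 3.14 in wild-type, with unadjusted p-values of 0.0185 and 0.0158 for the change, so there the contrast was narrower by estimate.

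Because Dsp showed the largest excess in hippocampus, the 250 bases before its start are shown, on the plus strand at chr13:38151044-38151293 of GRCm38.p6, as RefSeq gives them. They held none of the 4 motifs searched on both strands, as exact letters only. These were TATAAA (a form of the TATA box, other forms of which were not searched), CAGATG (an E-box bound by proneural factors), TAAAAATA (a MEF2 site) and TGACGTCA (the cAMP response element).
Dsp: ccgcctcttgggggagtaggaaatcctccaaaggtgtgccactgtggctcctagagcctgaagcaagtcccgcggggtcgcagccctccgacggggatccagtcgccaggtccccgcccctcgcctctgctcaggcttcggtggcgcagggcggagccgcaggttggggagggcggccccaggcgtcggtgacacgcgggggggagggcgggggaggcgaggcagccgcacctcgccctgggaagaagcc

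Zbtb20 encodes a transcription factor needed for the identity of hippocampal pyramidal neurons. Its signal was 1456, 3725 and 4135 in S1P2-KO hippocampus and 575, 775.3 and 891.7 in S1P2-KO neocortex. The tissues did not overlap, although hippocampus replicate 7 stood below the other hippocampal arrays, and the difference was 2.10 ± 0.18 (adjusted p = 3.73e-13), or 2.22 without that array, against 1.83 in wild-type. Lct, the gene of lactase, read 631.1, 877.4 and 1172 against 105.7, 151.6 and 263.3 (2.30 ± 0.15, adjusted p = 3.56e-17, wild-type 2.41). Tdo2, an enzyme of tryptophan breakdown, read 231.8, 435.4 and 687.7 against 27.1, 43 and 195.1 (2.34 ± 0.25, adjusted p = 2.74e-10). Its dimmer probe set gave -0.00 (adjusted p = 0.997), so the probe sets of Tdo2 disagree. Further down were Myo5b, a motor protein of membrane traffic (1.98), the Myc family factor Mycl (1.90), Rasd1, a small G protein induced by glucocorticoids (1.84), Popdc3 (1.75), the imprinted gene Nnat (1.75), the serine protease Klk8 (1.70) and the lipid droplet protein Cidea (1.67). Gstm6, a glutathione transferase, gave 2.19. For each of these 8 genes the S1P2-KO tissues did not overlap, and wild-type gave between 1.28 for Popdc3 and 2.16 for Gstm6. The dimmer probe set of Myo5b gave 0.47 in S1P2-KO and did not pass (adjusted p = 0.0765).

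On the side of neocortex the largest contrast belonged to Mef2c, a transcription factor of cortical excitatory neurons. Its signal was 13.4, 1143 and 1804 in S1P2-KO hippocampus and 5193, 7225 and 7765 in S1P2-KO neocortex, a difference of -3.06 ± 0.43 (limma adjusted p = 2.45e-07). The lowest value was that of hippocampus replicate 7, the array with the high 3′ to 5′ ratio, and the next lowest was 571.6. Without that array the difference was -2.61, and the tissues did not overlap with or without it. The other 3 probe sets of Mef2c gave -2.82, -3.58 and -1.96 in S1P2-KO and -3.43, -3.58 and -1.84 in wild-type, where the brightest gave -3.22. Igfbp6, a binding protein of insulin-like growth factors, had 852.9, 1070 and 1449 in hippocampus and 3164, 3946 and 4630 in neocortex, a difference of -1.83 ± 0.13 (adjusted p = 1.44e-15) that was -1.99 in wild-type. Tbr1, a transcription factor of deep-layer neurons, read 1522, 2307 and 2806 against 5787, 6438 and 9264, a difference of -1.58 ± 0.12 (adjusted p = 5.1e-15) that was -1.46 in wild-type. For both genes every hippocampal array of S1P2-KO lay below every neocortical one.

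Tnnc1, the troponin C of heart and slow muscle, was the second largest contrast in this direction. Its signal was 15.6, 95.8 and 225.5 in S1P2-KO hippocampus and 488, 735 and 1060 in S1P2-KO neocortex, without overlap, and the difference of -2.65 ± 0.28 (adjusted p = 9.41e-11) stood beside -2.36 in wild-type. The 250 bases before its start, on the plus strand at chr14:31208062-31208311 of GRCm38.p6 from RefSeq, are shown for this gene because they held 2 matches to CAGATG, in capitals, which begin 197 and 145 bases before the start.
Tnnc1: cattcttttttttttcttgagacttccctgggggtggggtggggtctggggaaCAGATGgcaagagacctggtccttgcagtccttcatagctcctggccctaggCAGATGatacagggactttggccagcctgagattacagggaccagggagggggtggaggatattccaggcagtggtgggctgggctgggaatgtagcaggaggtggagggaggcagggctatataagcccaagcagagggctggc

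Promoters in the RefSeq table were matched for 43 of the 63 genes with a large excess in hippocampus and for 50 of the 68 with a large deficit. CAGATG was present in 12.3% of 57 promoters of the first set, in 10.1% of 69 of the second and in 10.0% of 6646 promoters of all tested genes. TATAAA was present in 12.3%, 17.4% and 7.43%, TAAAAATA in 1.75%, 2.9% and 1.2%, and TGACGTCA in 1.75%, 1.45% and 2.36%. Among 32851 promoters of all genes in the RefSeq table, CAGATG was in 14.4%, TATAAA in 12.4%, TAAAAATA in 2.45% and TGACGTCA in 1.55%. Whether a set stands above or below thus depends on the background. Counts were small, with TATAAA in 7 and 12 promoters of the large sets and TAAAAATA in 1 and 2. These are shares of 250-base windows that hold the letters on either strand, and a match is not a known site of binding.

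Other large deficits in hippocampus included genes of signalling and of transmitter release. Among regulators of G protein signalling, Rgs6 gave -1.87 ± 0.26 (adjusted p = 1.66e-07) and Rgs4 gave -1.74 ± 0.24 (adjusted p = 2.35e-07), against -1.99 and -1.35 in wild-type. Without hippocampus replicate 7, where Rgs4 read 108.5, its difference was -1.55. Stx1a, a SNARE protein of synaptic vesicle fusion, read 2128, 2489 and 3118 in S1P2-KO hippocampus and 8270, 8643 and 9457 in S1P2-KO neocortex, with no overlap (-1.78 ± 0.30, adjusted p = 8.86e-06, wild-type -1.72). Ngef gave -1.76 ± 0.20 in both genotypes, and Arpp19, an inhibitor of a protein phosphatase, gave -1.81 ± 0.10 in S1P2-KO and -1.85 ± 0.10 in wild-type. Plekho1 (-1.84) and the formin Fhod3 (-1.78) were lower as well, as were the probe sets that the platform annotation names Trbv1 (-1.82) and Krt12 (-1.73). The dimmer probe sets of Plekho1 gave smaller differences of -1.08 and -0.84, both past the threshold, with overlapping arrays.

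**Figure D2:**
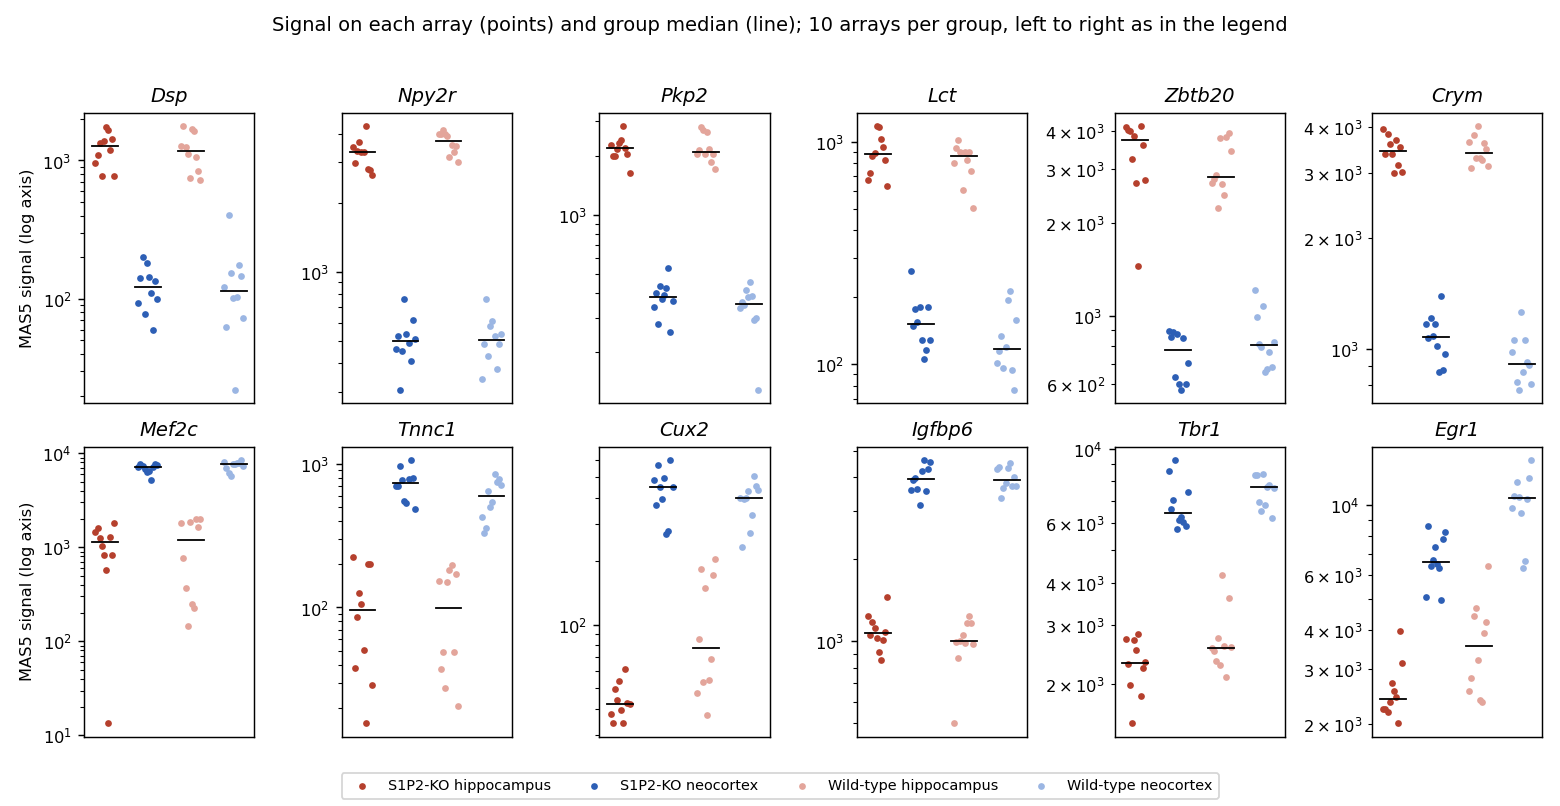
MAS5 signal (log axis) of 12 genes on each of the 10 arrays of S1P2-KO hippocampus, S1P2-KO neocortex, wild-type hippocampus and wild-type neocortex, from left to right in each panel, with the group median as a line. The tissues of S1P2-KO do not overlap in any panel; the single low hippocampal points of Zbtb20 (1456) and Mef2c (13.4) are S1P2-KO hippocampus replicate 7.

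The labelled tissues were set against lists of marker genes. Of 15 measured markers of hippocampal neurons, 9 were higher in S1P2-KO hippocampus and 0 were lower, with a list median of 0.61, where 8.25% of all genes were higher and the median of all genes was 0.02. They included Man1a, a mannosidase (1.42, with 0.29 and an adjusted p of 0.485 in its dimmer probe set), Rgs14 of field CA2 (0.90), Pou3f1 (0.65), Wfs1 of field CA1 (0.61) and Neurod1 (0.58). The 6 members not past the threshold ran from -0.15 for Npnt to 0.60 for Htr1a. In wild-type 10 of the 15 were higher and the median was 0.75. The list names genes known for their expression in hippocampus. It was drawn up with earlier results of these data known, so its direction is not an independent check of the dissection.

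Of 19 measured markers of neocortical layers, 13 were lower in S1P2-KO hippocampus, 1 was higher and 5 did not pass. Of all genes 7.5% were lower and 8.25% higher. The list median was -0.74 against -0.83 in wild-type, where 13 were lower and 1 higher. Besides the genes above, Ccn2 of the deepest layer (-1.35), Myl4 (-1.27), Lmo4 (-0.93), Cux1 of the upper layers (-0.74) and Foxp1 (-0.71) were lower. Fezf2, a factor of subcortical projection neurons (0.10), and Tle4 (-0.15) were not past the threshold. Crym, a cytosolic binding protein of thyroid hormone, went the other way: it read 3009, 3453 and 3956 in S1P2-KO hippocampus and 869.6, 1080 and 1396 in S1P2-KO neocortex, with no overlap (1.65 ± 0.09, adjusted p = 1.63e-19, wild-type 1.85).

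Immediate early genes, which neurons transcribe within minutes of strong activity, were more often lower than higher in S1P2-KO hippocampus. Of 26 measured members 10 were lower, 1 was higher and 15 did not pass, where 7.5% of all genes were lower, with a median of -0.41 in S1P2-KO and also in wild-type. Egr1, a zinc finger factor, had a signal of 2003, 2392 and 3956 in S1P2-KO hippocampus and of 4976, 6593 and 8587 in S1P2-KO neocortex. No array of one tissue reached those of the other, and the difference was -1.40 ± 0.16 (adjusted p = 1.2e-09), against -1.50 in wild-type. Egr2 gave -1.49, Fos -1.40, Nr4a1 -1.24, the phosphatase gene Dusp1 -0.84, and Fosb -0.69. The exception was Jun, which was higher in hippocampus by 1.05 ± 0.10 (adjusted p = 8.72e-12), close to 1.02 in wild-type. The regional differences of Egr1, Egr2 and Jun in S1P2-KO minus those in wild-type were 0.10, 0.26 and 0.03, none of them past the threshold.

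Neuropeptides and markers of inhibitory neurons were also more often lower than higher in S1P2-KO hippocampus. Of 19 peptides and trophic factors 8 were lower and 1 was higher (median -0.20), where 7.5% of all genes were lower and 8.25% higher. Adcyap1, which encodes the peptide PACAP, read 71.3, 285.5 and 392.7 in hippocampus and 545.3, 708.3 and 909.5 in neocortex, with no overlap (-1.38 ± 0.16, adjusted p = 4.74e-09). The opioid precursor Penk gave -1.12 (-0.29 and an adjusted p of 0.452 in its dimmer probe set), the tachykinin precursor Tac2 -1.05, neuropeptide Y (Npy) -0.95, vasoactive intestinal peptide (Vip) -0.95, and the tachykinin precursor Tac1 -0.86. Bdnf, the growth factor of neuronal plasticity, differed by -0.11 and did not pass. Of 19 genes of GABAergic neurons 5 were lower, 1 was higher and 13 did not pass, beside the same shares of all genes. The lists share genes: Npy, Tac1 and Vip count as lower in both, so the counts are not separate results. Gad1, an enzyme of GABA synthesis (0.01), and the peptide gene Sst (0.14) were among the 13, whereas the calcium binding protein Pvalb was lower by a log2 difference of -0.39. Calb2, which encodes calretinin, had 1278, 1932 and 2144 in hippocampus and 701.7, 837.1 and 983 in neocortex and was higher by 1.02 ± 0.11 (adjusted p = 2e-10). While Npy was thus lower in hippocampus (2626, 3046 and 4812, against 5506, 6282 and 8100 in neocortex), its receptor Npy2r was higher there.

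Receptors for GABA, glutamate and other transmitters were taken subunit by subunit. Gabrd, the delta subunit of extrasynaptic GABA-A receptors, had a signal of 75.4, 210.2 and 399.3 in S1P2-KO hippocampus and of 511.1, 682 and 937.8 in S1P2-KO neocortex, without overlap, and the difference was -1.61 ± 0.21 (adjusted p = 5.96e-08), against -1.24 in wild-type. Gabra3 (-1.13) and Gabrb2 (-0.85) were lower too, with overlapping arrays, and the call of Gabrb2 was lost when any of 3 single arrays was left out, hippocampus replicate 7 (-0.71, adjusted p = 0.0699) or neocortex replicate 9 (-0.77, adjusted p = 0.0528) or 10 (-0.77, adjusted p = 0.0524). Gabrb1 was higher by 0.72 ± 0.08 (adjusted p = 1.27e-09), so that 3 of 8 GABA receptor genes were lower and 1 was higher. Of 12 glutamate receptor genes, the AMPA receptor subunit Gria1 was higher (0.94 ± 0.24, adjusted p = 0.00409), the metabotropic receptor Grm8 was lower (-0.54), and 10 did not pass, which is close to the shares of all genes that were higher (8.25%) and lower (7.5%). Of 15 receptors for monoamines, acetylcholine and cannabinoids, the serotonin receptor Htr5b was higher (0.89), and the adrenergic receptor Adra1b (-1.22) and the histamine receptor Hrh1 (-0.54) were lower.

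Of 36 measured ion channel genes 11 were lower in S1P2-KO hippocampus, 3 were higher and 22 did not pass, where 7.5% of all genes were lower and 8.25% higher, with a median of -0.36, against 11 lower and 4 higher in wild-type with a median of -0.32. Kcnh1, a voltage-gated potassium channel, showed the largest deficit of the list: it read 42.9, 61.55 and 310.6 in hippocampus and 327.8, 670.8 and 939 in neocortex, which did not overlap. The difference was -2.41 ± 0.35 (adjusted p = 3.64e-07), against -1.63 ± 0.35 in wild-type. With a hippocampal median as dim as 61.55, the size of this difference is uncertain. Kcnj9, a subunit of G protein-gated potassium channels (-1.01), the calcium-activated channel Kcnma1 (-0.89), Kcnj4 (-0.76) and the sodium channel Scn1a (-0.68) were lower as well. The dimmer probe set of Kcnj9 went the other way and did not pass (0.18, adjusted p = 0.616). Kcnab2 (0.66), Kcnd2 (0.64) and the calcium channel subunit Cacnb2 (0.52) were higher. Genes of calcium signalling were split, with 9 of 27 higher and 10 lower. Hpca, the neuronal calcium sensor hippocalcin, had 25050, 31990 and 37240 in hippocampus and 12430, 14010 and 16280 in neocortex (1.12 ± 0.09, adjusted p = 5.42e-15), and the calcium release channel Ryr3 gave 1.28 and Camk2b 0.68. On the other side were Camk2d (-1.07), Camk4 (-0.99) and the calcium sensor Vsnl1 (-0.64).

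Adhesion and axon guidance genes carried contrasts in both directions. Of 44 measured genes 11 were higher in S1P2-KO hippocampus, 9 lower and 24 not past the threshold, and 7 of the 11 were large. Of all genes 8.25% were higher, 7.5% lower and 0.992% large and higher. The desmosome genes Dsp and Pkp2 described above are on this list and among the 7. The list was drawn up with earlier results of these data known, so its counts are not an independent test. Nrp1, a receptor for semaphorins, had 3536, 3849 and 4343 in hippocampus and 1176, 1359 and 1920 in neocortex, with no overlap (1.46 ± 0.07, adjusted p = 4.26e-22). The ephrin receptors Epha7 (1.64) and Epha6 (1.15), the secreted Sema3e (1.15) and the Slit receptor Robo1 (1.15) were higher too. Plxnd1, the receptor to which the Sema3e protein binds, was lower: it read 348.9, 571.4 and 717.1 against 1054, 1659 and 2458, a difference of -1.50 ± 0.13 (adjusted p = 7e-13). Sema4a (-0.94), Sema7a (-0.82), the ephrins Efnb2 (-0.81) and Efnb1 (-0.77) and the junction protein Jup (-0.78) were lower, whereas the ephrin Efnb3 was higher (0.78). In wild-type 11 of the 44 were higher and 8 lower.

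Glial and vascular genes were read in the same way, beside 8.25% of all genes higher and 7.5% lower. Of 17 astrocyte genes 8 were higher and 0 lower in S1P2-KO hippocampus (median 0.23, wild-type 0.19), led by the intermediate filament gene Gfap. It had 2806, 3070 and 3850 in hippocampus and 1198, 1501 and 1898 in neocortex, which did not overlap. The difference was 1.06 ± 0.13 (adjusted p = 5.74e-09), against 1.19 in wild-type. The dimmer probe set of Gfap gave 0.70 in S1P2-KO, past the threshold but with overlapping arrays. Fabp7 (0.55), Ntsr2 (0.41), Clu (0.30) and Cst3 (0.24) were higher, and Aqp4, the water channel of astrocyte endfeet, was not past the threshold (-0.02). Of 12 myelin and oligodendrocyte genes 5 were higher and 0 lower, with Cldn11 (0.37), Mobp (0.34), Car2 (0.31), Qdpr (0.28) and Mbp (0.26) and overlapping arrays in all 5. With the mean of choroid plexus markers as a covariate the calls of Mobp (0.26, adjusted p = 0.0699) and Mbp (0.24, adjusted p = 0.0684) were lost, and that of Mbp also without hippocampus replicate 5 (0.23, adjusted p = 0.0554) and under quantile normalization (adjusted p = 0.0636). The call of Car2 was lost when only the arrays of the genotypes compared were fitted (adjusted p = 0.0702). Other probe sets did not pass, at -0.12 for Mbp and at 0.24, 0.10 and 0.30 for Mobp. Of 13 microglial genes 0 passed by limma, with 2 at an unadjusted p under 0.05, from -0.21 for Aif1 to 0.35 for Ly86, and 1 of 18 endothelial and mural genes did, Ramp2 (0.65 ± 0.09, adjusted p = 1.87e-07).

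Genes of the signalling pathway to which the deleted receptor belongs were counted next. Of 16 measured genes of sphingosine and lysophosphatidic acid signalling only Plpp3, a phosphatase of lipid phosphates, passed the threshold (0.41 ± 0.10, adjusted p = 0.00331, wild-type 0.43). S1pr1 (-0.01), Lpar1 (0.09), Sphk2 (0.30) and the lyase gene Sgpl1 (-0.03) did not. At an unadjusted p under 0.05 there were 3 of the 16, beside 25.1% of all probe sets, so these counts do not set the pathway apart from other genes. Of 12 genes of steroid hormone receptors and their cofactors 4 were higher and 1 was lower, beside 8.25% and 7.5% of all genes. The higher genes included Hsd11b1, which regenerates active glucocorticoid (0.72), and the nuclear receptors Nr2f2 (0.68) and Thra (0.45), while Nr2f1 was lower (-0.41). The dimmer probe set of Thra differed by -0.36 and did not pass. Of 16 genes of cholesterol synthesis 2 were lower, Fdft1 (-0.57) and Ebp (-0.33), a count near the 7.5% of all genes, and the call of Ebp was lost without hippocampus replicate 5 (-0.28, adjusted p = 0.061).

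**Figure D3:**
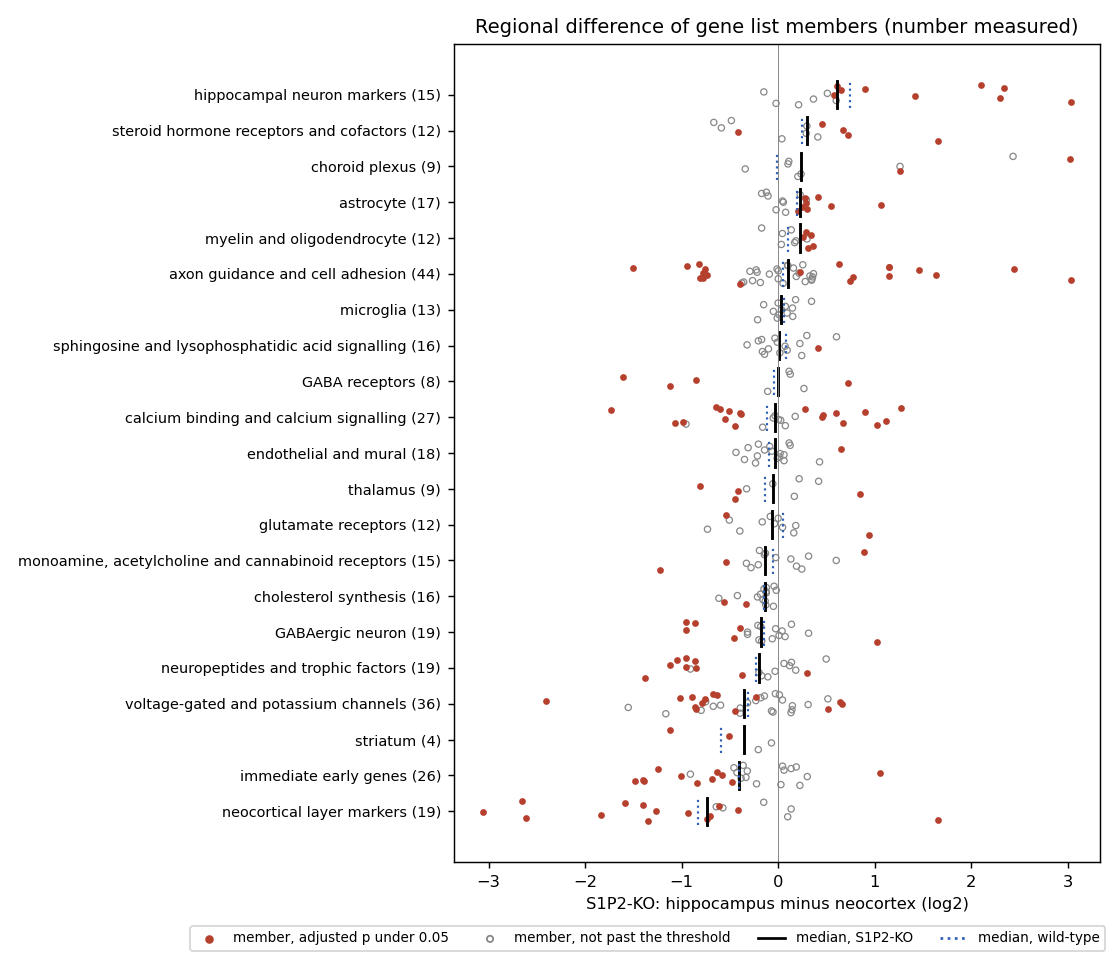
Hippocampus minus neocortex (log2) in S1P2-KO for the measured members of 21 gene lists, 1 row per list with the number of members, ordered by median; filled points passed an adjusted p of 0.05, the black line is the S1P2-KO median and the dotted line the wild-type median. Hippocampal neuron markers lie to the right (median 0.61) and neocortical layer markers to the left (-0.74). The S1P2-KO and wild-type medians lie apart for choroid plexus (0.24 and -0.01) and striatum (-0.36 and -0.59), lists of 9 and 4 members.

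Markers of neighbouring tissue were uneven between arrays. Ttr, the transthyretin gene that defines choroid plexus, ran from 49.4 to 23060 in S1P2-KO hippocampus with a median of 7536, and from 30.4 to 4755 in S1P2-KO neocortex with a median of 233.6. Its difference of 2.43 did not pass (adjusted p = 0.0916), and wild-type hippocampus was as uneven, from 27.3 to 33070. Of 9 measured choroid plexus genes 2 passed, Kl and Calml4, both higher in hippocampus, where 8.25% of all genes were higher. The summed signal of the list ran from 5322 to 45450 in S1P2-KO hippocampus and from 7719 to 15790 in S1P2-KO neocortex, with no signal at 0. Kl, which encodes klotho, a co-receptor for a fibroblast growth factor, had 180.7, 681.8 and 1810 in hippocampus and 12.1, 19.05 and 286.4 in neocortex. The arrays overlapped, and the difference was 3.03 ± 0.39 (adjusted p = 3.41e-08, wild-type 2.96). On the 4 S1P2-KO hippocampus arrays with the lowest Ttr, replicates 5, 6, 7 and 10, Kl read 386.1, 180.7, 241.5 and 215.1, all above the neocortical median and 3 of them below the highest neocortical array. With the mean of the choroid plexus list as a covariate, an alternative added after the data were seen, 1144 probe sets were called in place of 1255. Kl then differed by 1.99 (limma adjusted p = 1.44e-08). Calml4 lost its call (0.34 with the covariate, limma adjusted p = 0.578, and 1.26 without it). Kl and Calml4 are themselves part of that mean, so the adjustment by itself takes away part of their differences. The call of Calml4 was also lost when any of 6 single arrays was left out, hippocampus replicates 1, 2 and 9 and neocortex replicates 3, 4 and 10, down to 1.06 without neocortex replicate 3 (adjusted p = 0.0738).

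Thalamic and striatal markers were checked in the same way, beside 8.25% of all genes higher and 7.5% lower. Of 9 thalamic genes Prkcd, a protein kinase C, was higher in S1P2-KO hippocampus (0.85 ± 0.11, adjusted p = 1.04e-07), and Rora (-0.81), Cacna1g (-0.45) and Ramp3 (-0.42) were lower. The last 2 calls were lost when single arrays were left out, down to -0.39 for Cacna1g (adjusted p = 0.102, without hippocampus replicate 7) and -0.35 for Ramp3 (adjusted p = 0.124, without hippocampus replicate 1). The summed signal of the thalamic list ran from 6093 to 8348 in hippocampus and from 6072 to 8394 in neocortex. Of 4 striatal genes Penk (-1.12) and Pde1b (-0.51) were lower, and the summed signal ran from 5468 to 7401 in hippocampus and from 8233 to 13100 in neocortex. What part carried tissue has in the contrasts of these genes was not tested beyond the choroid plexus covariate.

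**Figure D4:**
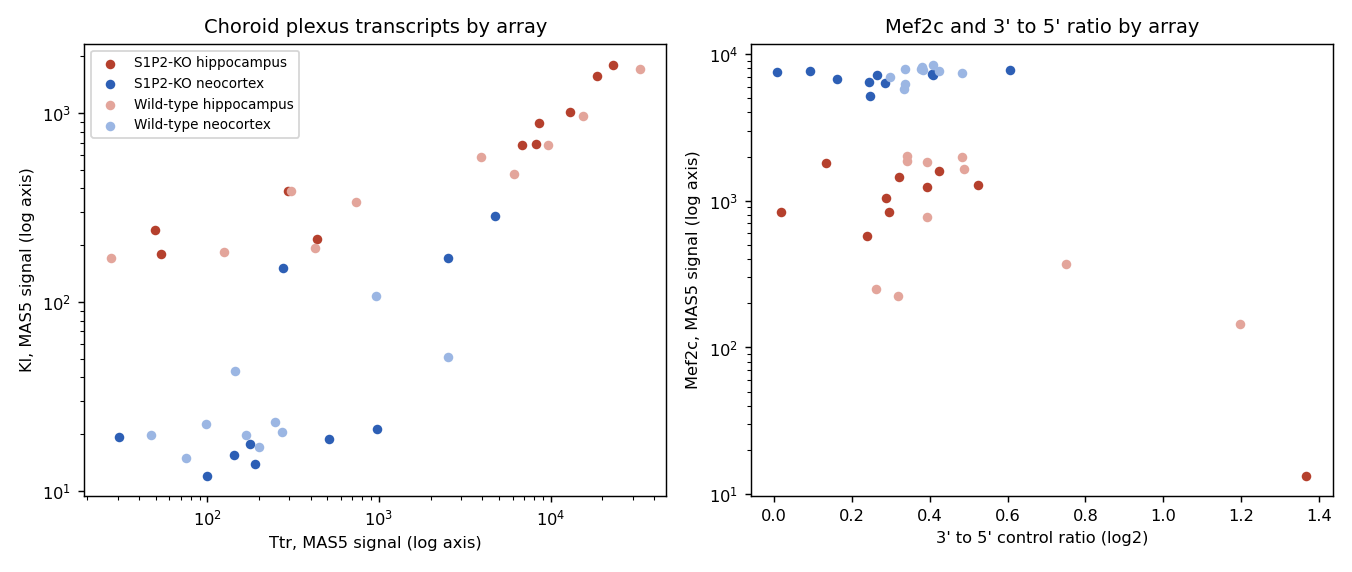
Left, Kl against Ttr signal (log axes) on each array of S1P2-KO and wild-type hippocampus and neocortex; right, Mef2c signal (log axis) against the log2 3′ to 5′ control ratio of the same arrays. In S1P2-KO hippocampus the array with the highest Ttr also has the highest Kl, 1810, and the S1P2-KO hippocampus array with a ratio of 1.37 has a Mef2c signal of 13.4.

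Whether regional contrasts held between genotypes was asked with the difference of the 2 contrasts, S1P2-KO minus wild-type, which share no array. No probe set passed (limma, 0 of 8534, smallest adjusted p = 1), and 222 had an unadjusted p under 0.05 (2.6%). That share is below the 1 in 20 expected if no contrast changed. The median standard error of the difference of contrasts was 0.19. The 95% interval of that difference lay within ±1 for 7407 probe sets (86.8%) and within ±0.5 for 4133 (48.4%). For the remaining probe sets a change of that size was not bounded. Large contrasts were bounded less often. Of the 178 large in S1P2-KO, 121 had the interval within ±1 (68%) and 50 within ±0.5 (28.1%). Of the 169 large in wild-type, 110 had it within ±1 (65.1%) and 40 within ±0.5 (23.7%). Of 178 probe sets with a large contrast in S1P2-KO, 176 had the same sign in wild-type, 156 were called there in the same direction and 131 were large there too. Of all 8534 probe sets 6378 had the same sign in both genotypes, and 1223 were called in wild-type in the S1P2-KO direction. The 131 large in both were also 131 of the 169 that were large in wild-type, all 169 of which had the same sign in S1P2-KO and 151 of which were called in it.

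The count of narrower contrasts depended on which genotype chose the probe sets. Among those large in S1P2-KO 70 of 178 were smaller in S1P2-KO than in wild-type, and among those large in wild-type 108 of 169 were. The probe sets were therefore also chosen by the S1P3-KO contrast, whose arrays belong to neither genotype compared. That contrast is itself unsteady: its 1023 calls became 676 without S1P3-KO hippocampus replicate 5, the array with a ratio of 4.46, and 255 in a fit of the S1P3-KO arrays alone. Of the 235 chosen in this way 233 had the same sign in S1P2-KO and wild-type, and 118 were smaller in S1P2-KO, beside 6378 and 4464 of all 8534 probe sets. Their median absolute difference was 1.07 in S1P2-KO and 1.08 in wild-type. Pearson r was 0.98 across probe sets, which are not independent replicates, and pooling large differences of both signs raises it. A line through 0 of S1P2-KO on wild-type had a slope of 0.972. The line of wild-type on S1P2-KO had 0.988, so a slope just below 1 does not by itself mean a narrower contrast. Leaving out single arrays gave slopes of S1P2-KO on wild-type between 0.918, without S1P2-KO hippocampus replicate 7, and 1.01, without wild-type hippocampus replicate 4. The slope was 0.978 without S1P3-KO hippocampus replicate 5. For the 75 that were higher in S1P3-KO hippocampus (0.879% of all probe sets) the slope was 0.954, and 1.03 for wild-type on S1P2-KO. Their medians were 1.42 in S1P2-KO and 1.42 in wild-type, and Pearson r was 0.936. For the 160 that were lower (1.87%) the slope was 0.989, and 0.954 for wild-type on S1P2-KO. Their medians were 0.987 and 0.865, and Pearson r was 0.887. In 8 of the 235 (3.4%) the difference of contrasts had an unadjusted p under 0.05, beside 2.6% of all probe sets, and 2 of the 8 were narrower in S1P2-KO.

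Of 159 genes with a large contrast in either genotype, 77 were narrower and 82 wider in S1P2-KO, and 6 had an unadjusted p under 0.05 for the change. None passed adjustment, and those of smallest p are given as values. Cux2, the upper-layer transcription factor, read 34, 42.15 and 61.5 in S1P2-KO hippocampus and 268.7, 449.4 and 602.5 in S1P2-KO neocortex, against 37.2, 77.25 and 204.9 in wild-type hippocampus and 233, 397.8 and 504.6 in wild-type neocortex. All 10 S1P2-KO hippocampus arrays lay below the wild-type hippocampus median, and neither genotype's tissues overlapped. These hippocampal signals of S1P2-KO lie near the constant of 30.7 that was added before the log2. The size of the contrast is therefore uncertain. The contrast was -2.62 ± 0.20 in S1P2-KO and -1.72 ± 0.20 in wild-type, a difference of -0.89 (95% interval -1.47 to -0.32, unadjusted p = 0.00296, limma adjusted p = 1), and it was -2.05 in S1P3-KO.

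Sla, an adaptor protein of receptor signalling on the neocortical list, gave 44.5, 76.4 and 337.8 in S1P2-KO hippocampus and 203.3, 331.3 and 515.4 in S1P2-KO neocortex, which overlapped. In wild-type it gave 66.6, 160.8 and 410.9 in hippocampus and 92.5, 211.6 and 468.8 in neocortex. The contrasts were -1.41 ± 0.31 and -0.17 ± 0.31, a difference of -1.24 (interval -2.12 to -0.36, unadjusted p = 0.00684). Adgrg3, an adhesion G protein-coupled receptor, had a contrast of 1.23 ± 0.33 in S1P2-KO and of 0.22 ± 0.33 in wild-type, with an interval of 0.07 to 1.94 for the change. In S1P2-KO its arrays overlapped between the tissues, from 44.2 to 445.2 in hippocampus and from 21.5 to 256.5 in neocortex, and with the choroid plexus covariate its call was lost (adjusted p = 0.0549). The other genes that were wider in S1P2-KO were the vesicle protein Syngr1 (-1.05, wild-type -0.29), the kinase subunit Camk2d (-1.07, wild-type -0.48), the DNA methyltransferase Dnmt3a (-1.26, wild-type -0.50), Golm1 (1.41, wild-type 1.19) and the channel Kcnh1, whose change of -0.78 had an interval of -1.76 to 0.21.

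Among the narrower genes, Kif23, a mitotic kinesin, differed by -0.04 ± 0.37 in S1P2-KO and by -1.14 ± 0.37 in wild-type (interval of the change 0.05 to 2.14, unadjusted p = 0.0402), with signals as low as 29.6 and 29.1 in the hippocampus of the 2 genotypes. Fosb, an activity-dependent partner of Jun, differed by -0.69 ± 0.15 and -1.10 ± 0.15. Its signal in S1P2-KO was 976.3, 1175 and 1535 in hippocampus and 1413, 1844 and 3582 in neocortex, against 1043, 1303 and 2014 in wild-type hippocampus and 1733, 3154 and 5200 in wild-type neocortex, so the medians of the neocortex groups lay farther apart than those of the hippocampus groups. The interval of the change in Fosb was -0.01 to 0.83. Sparc, a protein of the extracellular matrix, gave 0.89 in S1P2-KO and 1.17 in wild-type. The semaphorin receptor Nrp1 gave 1.46 and 1.64, Frmd6 -1.26 and -1.68, the Ras exchange factor Rasgrf2 -0.64 and -1.24, the small G protein Rrad -0.58 and -1.06, and the transcriptional cofactor Zfpm2 0.78 and 1.40. For these 6 the interval of the change included 0.

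**Figure D5:**
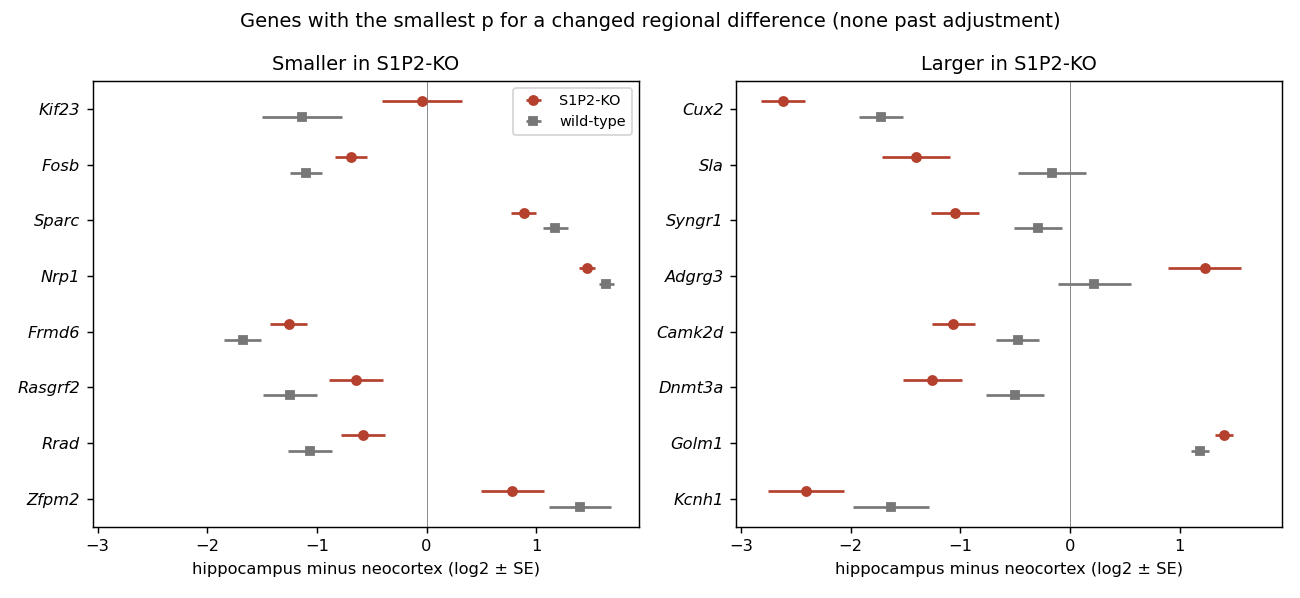
Hippocampus minus neocortex (log2 estimate ± SE) in S1P2-KO (red, above) and wild-type (grey, below) for the 8 narrower (left) and 8 wider (right) genes of smallest unadjusted p for the change, among genes with a large contrast in either genotype. The estimates of Kif23 (-0.04 and -1.14) and Sla (-1.41 and -0.17) lie farthest apart, and no change passed adjustment.

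Over all genes, without regard to the size of the contrast, the smallest unadjusted p belonged to Des, the intermediate filament desmin of muscle and mural cells. Its signal was 77.9, 235 and 399.3 in S1P2-KO hippocampus and 57.7, 114.1 and 197.2 in S1P2-KO neocortex, against 46.2, 146 and 225.4 in wild-type hippocampus and 139.1, 210.7 and 337.8 in wild-type neocortex. Hippocampus was thus the higher tissue by median in S1P2-KO and the lower one in wild-type, with overlapping arrays in both. The contrasts were 0.83 ± 0.24 and -0.54 ± 0.24, a change of 1.38 (interval 0.69 to 2.06, unadjusted p = 0.000206, limma adjusted p = 1). Eng, an endothelial co-receptor, gave 0.01 and -0.38, and Sh3bp1, Clip3 and Mcrs1 changed by 1.35, 1.30 and 0.44. In the opposite direction Timm23, a subunit of the mitochondrial import channel, changed by -0.36, the chloride transporter Clcn5 by -0.74, Cox6b2 by -0.92 and Tigd5 by -0.48. Among other measured mural genes, Acta2, the actin of smooth muscle, differed by 0.43 in S1P2-KO and 0.41 in wild-type, and Pdgfrb by -0.07 and -0.14. Both were picked with their values known, and other measured mural genes, such as Rgs5 and Kcnj8, are not given. Over the 18 measured endothelial and mural genes the largest absolute change was 0.52.

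Against S1P3-KO, the knockout without seizures, 0 of 8534 differences of contrasts passed (limma, smallest adjusted p = 0.954), and 360 had an unadjusted p under 0.05 (4.22%). Of the 178 probe sets with a large contrast in S1P2-KO 177 had the same sign in S1P3-KO and 145 were called there in the same direction, beside 6102 and 1013 of all 8534. Des again had one of the smallest p-values, with a change of 1.54 (unadjusted p = 0.000599) and a contrast of -0.71 in S1P3-KO. The same S1P2-KO arrays enter both comparisons. Wwc2, Stat5b, Stk40 and Upk3b changed by 1.01, 1.46, 0.52 and 1.49, and Gclc, an enzyme of glutathione synthesis, Nras, Zfp91 and Acyp2 by -0.52, -0.66, -0.54 and -0.53. Within S1P2-KO the contrasts of males and females did not differ in any probe set after adjustment (limma, 0 of 8534, smallest adjusted p = 1, and 277 at an unadjusted p under 0.05, 3.25%). The microglial gene Mpeg1 gave -0.55 in males and 0.52 in females (unadjusted p = 0.000379), the lysosomal protease Ctsd 0.39 and -0.20, and Npepl1, C1qtnf1 and Tmem38b followed. For the S1P3-KO comparison, 5 arrays per tissue and hippocampus replicate 5 limit the precision, and the median standard error of the change was 0.23.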

How the data were processed

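RNA from mouse neocortex and hippocampus was hybridised to 50 Affymetrix arrays with 12488 probe sets. The authors deposited linear intensity values, which the submitters' processing notes attribute to MAS5. The version is not given in the sources used here. That algorithm takes mismatch probes off each perfect match and scales every array to a common level, so dim values are noisy. The deposited intensities had trimmed means of 999.15 to 999.82, and no further scaling was done. Per the labels' protocols, 12 µg of total RNA was labelled.

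Groups, sexes and replicate numbers came from the titles. The computed values were log2(signal + 30.7), the pseudocount being the 10th percentile of all signals, which understates differences of dim genes. Of the probe sets, 66 controls were removed, and 8534 had a mean above the pooled 30th percentile. The limma package (3.58.1, R 4.3.3) was run with lmFit and a trended eBayes on group means of genotype by tissue plus a sex effect for each tissue. P-values were adjusted by Benjamini-Hochberg over all probe sets, with a threshold of 0.05. The sex interaction used the 20 S1P2-KO arrays. Calling was tested on simulated data.

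The platform annotation gave 1 gene symbol for 10855 probe sets, several for 396 and none for 1237. A gene stands by its brightest probe set. Named were the targeted genes, 15 genes with the largest difference in either direction, up to 4 called genes of each of 21 lists, and genes of smallest p for a changed contrast (5 in either direction, 8 narrower, 8 wider, and 5 by sex). Further list members were picked for the text with their values known, as were Acta2 and Pdgfrb. The members and lists were chosen with earlier results of these data known. Replicate numbers were not taken to pair the tissues: deviations of same-numbered arrays correlated at 0.04 to 0.23 in S1P2-KO, above 0.1 in 7 of 10 pairs. Alternatives were the pseudocount, the filter, quantile normalization, array weights, the control ratio as a covariate, no sex term, fewer arrays, a replicate block and leaving out each array. The number of arrays limits the precision.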

Additional observations from a re-analysis of the deposited data

Results flagged for a closer look

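For 96 named genes the 10 arrays of each S1P2-KO tissue were searched for a single array far from the others by Dixon's criterion. It marked 21 of 192 groups, where chance at 1 in 20 would mark 9.6. Of these, 5 fell on hippocampus replicate 7, the array with a 3′ to 5′ control ratio of 1.37. They were Mef2c at 13.4, Zbtb20 at 1456, Rgs4 at 108.5, Kcnj9 at 438.7 and Kcnj4 at 459.5, each the lowest value of its group. Without that array the regional differences were -2.61 for Mef2c, 2.22 for Zbtb20, -1.55 for Rgs4, -0.91 for Kcnj9 and -0.64 for Kcnj4, all still past the threshold. The part of RNA integrity in these values was not tested beyond that.

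Other hippocampal arrays far below their group were replicate 3 for Trbv1 (122.5) and Adgrg3 (44.2), replicate 1 for Ramp3 (243.7), replicate 5 for Adcyap1 (71.3), replicate 6 for Ryr3 (1433) and Rasgrf2 (21.4), replicate 8 for Rrad (126.3) and replicate 2 for Zfpm2 (104.5). Far above their group were hippocampus replicate 5 for Mbp (22930) and replicate 8 for Golm1 (4744). In neocortex replicate 7 was far below for Mef2c (5193) and far above for Hrh1 (455.1), replicate 10 was far below for Rgs6 (76.9), and replicate 6 was far above for Krt12 (2229). Neocortex replicate 2 stood far above the others for the immediate early genes Egr2 (1928) and Fosb (3582).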

How the results depend on the processing

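The number of probe sets called in the S1P2-KO contrast was 1255 and ran from 1144 to 1649 over the other settings. Leaving out single arrays gave 1114 (without S1P2-KO hippocampus replicate 7) to 1258. The changes of contrast against wild-type, against S1P3-KO and between sexes had 0 calls under every alternative run. In the wild-type contrast single arrays gave 1069 (without hippocampus replicate 4) to 1353. The S1P3-KO contrast depended most on the settings: its 1023 calls became 632 with array weights, 659 with the control ratio as a covariate and 255 in a fit of the S1P3-KO arrays alone, and leaving out single arrays gave 676 (without hippocampus replicate 5) to 1203. The cause was not tested. With a replicate block the counts were 1461 in S1P2-KO, 1525 in wild-type and 1302 in S1P3-KO; the numbers were not shown to pair the samples, and 4 of 10 S1P2-KO arrays correlated best with their own number. Among single genes the contrast of Kif23 in S1P2-KO changed sign, from -0.20 to 0.15 as single arrays were left out. Calls of Calml4, Adgrg3, Cacna1g, Mbp and Mobp were lost with the choroid plexus covariate, a mean to which Calml4 itself contributes. Rrad and Ramp3 lost theirs without the filter on dim probe sets, without a sex term and with a pseudocount of 10. Both also lost them when any of many single arrays was left out, and Rrad under quantile normalization. Dim signals limit the data, since MAS5 values near the pseudocount carry little information on size.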
